A study of Mus musculus with 4 samples.

Results

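The glucose and amino acid transporter genes described here are those of the solute carrier families SLC1, SLC2, SLC3, SLC7 and SLC38, taken as every gene in the deposited table whose symbol is Slc1a, Slc2a, Slc3a, Slc7a or Slc38a followed by a number. There were 47 such genes of 24442 in the table, picked out by their names, a rule that uses no measured value. RNA was sequenced from mammary gland cells of 5-week-old female Lgr6-eGFP-CreErt2 mice, in which a green fluorescent protein and an inducible recombinase report Lgr6, a receptor gene of the leucine-rich repeat family. All 4 libraries came from this genotype, and no treatment is given. Cells gated as LIN- were sorted by the Lgr6 reporter, with 2 libraries of positive and 2 of negative cells, called positive and negative libraries below. The sources used here do not name the lineage markers, the gate of the negative cells or the animals behind each library, so the p-values speak only for how these samples vary, which may be technical.

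Sugars and amino acids cross the plasma membrane through carrier proteins. SLC2 proteins let glucose and other hexoses move down their gradient. SLC1 proteins carry glutamate or exchange small neutral amino acids, SLC38 proteins bring in neutral amino acids together with sodium, and the SLC7 family holds the cationic amino acid transporters and the light chains that reach the membrane bound to an SLC3 heavy chain. The lactating mammary epithelium takes up glucose for lactose and amino acids for milk protein, and leukocytes raise their own set of carriers when they are activated.

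Libraries held 6819127 to 7167465 counts. Lgr6 itself had 172 and 655 counts in positive against 3 and 10 in negative libraries. Its adjusted p of 0.0510 in edgeR's quasi-likelihood test just missed the threshold of 0.05. Lgr6 passed in 8 of 11 alternative settings, DESeq2 included, but not in limma-voom. Mammary epithelial markers summed to 4922 and 4669 CPM (normalized counts scaled to a common library total) in positive and 186 and 202 in negative libraries, and 9 of 10 were higher in positive cells, with Krt7 at 0 in negative cells. Leukocyte markers summed to 1795 and 2151 against 29691 and 33691 CPM, and 10 of 10 were lower in positive cells. Endothelial markers (4 of 8 higher, 4 not passed) summed to 1287 and 1521 against 209.7 and 125.7 CPM. Fibroblast markers (3 of 7 higher, 4 not passed, Pdgfra at 0 in negative cells) summed to 878 and 628 against 38.5 and 71.8 CPM. The median log2 fold changes (positive over negative) of these lists were 2.41 and 3.85. Red cell markers (6 of 7 tested higher, Slc4a1 at 0 throughout) summed to 1394 and 1186 against 23.9 and 19.7 CPM. Adipocyte markers (0 of 2 tested passed, Cidec, Lep and Retn at 0 throughout) summed to 131.6 and 109.9 against 17.6 and 75.9 CPM. Fabp4 made up most of the sum in positive libraries, at 121.6 and 94.1 against 13.6 and 41.1 CPM. Pparg, the other tested marker, had a fold change of the opposite sign. It was at 7.73 and 0 against 4.06 and 34.8 CPM, with libraries that overlapped. The part of these cell types in the transporter results was not tested, and in bulk libraries fewer cells of a type and less RNA per cell cannot be told apart.

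Of the 47 transporter genes, 23 passed the filter on low counts and were tested, 14 had counts below the filter and 10 had no counts in any library. None of the 23 passed an adjusted p of 0.05 in edgeR, higher or lower, where 9.06% of 11661 tested genes passed, 4.49% higher and 4.57% lower in positive cells. At an unadjusted p under 0.05 there were 7, or 30.4%, beside 25.1% of all tested genes. Of these, Slc2a1, Slc7a2, Slc7a4 and Slc38a6 had positive fold changes (14.3% of all tested genes) and Slc2a3, Slc2a6 and Slc7a11 negative ones (10.8%). DESeq2 called 6 of 27 transporters (22.2%) beside 21.1% of all genes, and limma-voom 4 of 23 (17.4%) beside 12.7%. The values of the populations did not overlap for 12 of the 23 (52.2%) beside 56.0% of all tested genes. Positive libraries were above for 5 (background 30.0%) and negative libraries for 7 (background 25.9%). These shares lay near those of all genes.

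Fitted log2 fold changes (positive over negative) were above 0 for 11 and below 0 for 12 of the 23, with a median of -0.19 beside 0.10 over all tested genes. Scaling by total counts, which moved all genes by a median of 0.45, took the transporters' median to 0.28. The median was also -0.19 with Slc7a4 and Slc38a6, which had no counts in negative cells, set to their lower bounds. Both bounds lay above the median, so it could not move. Adjusted p-values in edgeR ran from 0.0525 for Slc2a3 to 0.990 for Slc7a5.

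**Figure D1:**
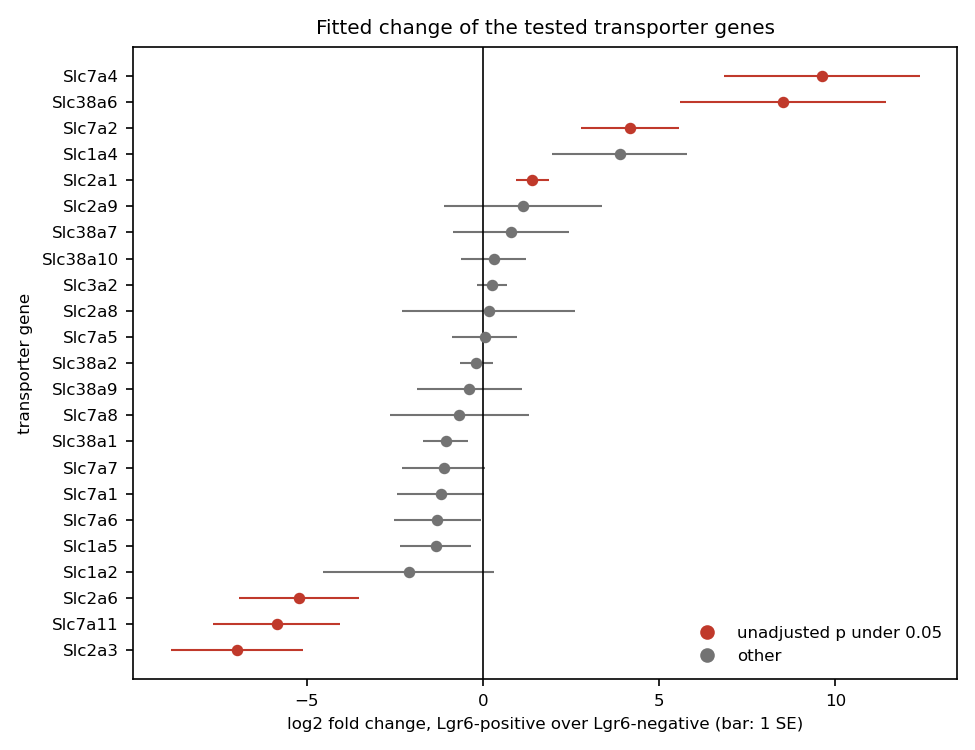
Log2 fold change of the 23 tested transporter genes (horizontal axis, Lgr6-positive over Lgr6-negative, bars of 1 SE, the standard error), ordered by size on the vertical axis, with the 7 genes at an unadjusted p under 0.05 in red. The red genes lie at both ends and Slc3a2, Slc7a5 and Slc38a2 near 0, and the values of Slc7a4 and Slc38a6, at 0 in Lgr6-negative cells, depend on the prior count of the fit.

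Among the hexose facilitators, Slc2a1 on one side and Slc2a3 and Slc2a6 on the other separated the populations without overlap. Slc2a1, which encodes the widespread glucose carrier GLUT1, was at 243 and 239 CPM in positive and 87.8 and 94.4 CPM in negative libraries. Both positive libraries were above both negative ones, with means of 241.1 ± 2.34 and 91.1 ± 4.63 CPM (SD, n = 2), a ratio of 2.65. The log2 fold change of 1.40 (SE 0.46) had an adjusted p of 0.0954 in edgeR and so missed the threshold. Among 11 alternatives it passed only when libraries were scaled by total counts (0.0461), with adjusted p-values up to 0.298. Slc2a1 spans bases 119108711 to 119137983 of chromosome 4 (GRCm38, plus strand).

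The window upstream of Slc2a1 is shown because this gene held most of the SLC2 message in positive cells and a first search had found a match in it. It covers bases -200 to -31 before the RefSeq start on GRCm38.p6, chr4:119108545-119108714, plus strand, 5′ to 3′, with ACGTG, the core of the hypoxia response element, in capitals at bases -36 to -32.
Slc2a1: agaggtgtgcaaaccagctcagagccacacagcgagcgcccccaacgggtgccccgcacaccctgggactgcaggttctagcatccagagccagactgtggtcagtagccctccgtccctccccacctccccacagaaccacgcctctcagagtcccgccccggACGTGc
ACGTG was searched on both strands and is also part of the E-box CACGTG. It was present in 11.7% of 32851 RefSeq windows of this length. The 36 transporter genes with an entry had 46 windows, of which 7 held it (Slc1a7, Slc2a1, Slc38a10, Slc3a2, Slc7a14, Slc7a15 and Slc7a6). The window of Slc7a11 shown further on was likewise picked after that search. A match describes the letters only.

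Slc2a3 encodes GLUT3, a high-affinity glucose carrier of neurons and leukocytes. It had 1 and 2 counts in positive and 156 and 155 in negative libraries, or 0.12 and 0.25 against 24.3 and 27.6 CPM. Both negative libraries were far above both positive ones, at a ratio of 138 with a 95% interval from 46.9 to 674. That interval covers counting error only, as PCR copies were not marked by molecular identifiers. Its adjusted p of 0.0525 in edgeR ran from 2.39e-05 to 0.140 over 11 alternatives and passed in 5 of them, DESeq2 and limma-voom included. Slc2a3 spans bases 122727809 to 122801640 of chromosome 6, minus strand.

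Slc2a6 encodes GLUT6, an intracellular facilitator known from leukocytes. It had 0 and 33 counts in positive against 514 and 435 in negative libraries, or 0 and 4.18 against 80.2 and 77.3 CPM. The negative mean was 37.7 times the positive mean, and the populations did not overlap. The log2 fold change was -5.23 (SE 1.70), with an adjusted p of 0.0922 in edgeR. It passed in 8 of 11 alternatives, DESeq2 and limma-voom included, and 4 of those 8 leave a single library in a population. Its log2 fold change lay at -4.23 without positive replicate 1 and -12.06 without positive replicate 2. The leukocyte marker sum given above was higher in the same libraries as Slc2a3 and Slc2a6, and its part in their values was not tested. Slc2a6 spans bases 27021363 to 27027998 of chromosome 2, minus strand.

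Levels of different genes were compared per kilobase of exon. The length was taken over all annotated exons of a gene and not over the transcripts present. Ratios and shares between genes therefore depend on the annotation. On that scale Slc2a1 was at 69.3 and 68.3 CPM per kilobase in positive and 25.1 and 26.9 in negative libraries, where Slc2a6 stood beside it at 25.0 and 24.1. Slc2a1 took 94.3% and 83.8% of the family's sum in positive and 42.3% and 48.8% in negative libraries. Slc2a6 took 0% and 1.60% against 42.1% and 43.7%, and Slc2a3 0.023% and 0.043% against 5.67% and 6.89%. The sum over the family was 73.4 and 81.5 against 59.3 and 55.2 CPM per kilobase. The shares were devised after the values had been seen, and with 2 libraries against 2 no exact two-sided permutation p can go below 0.333, so they are a description.

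**Figure D2:**
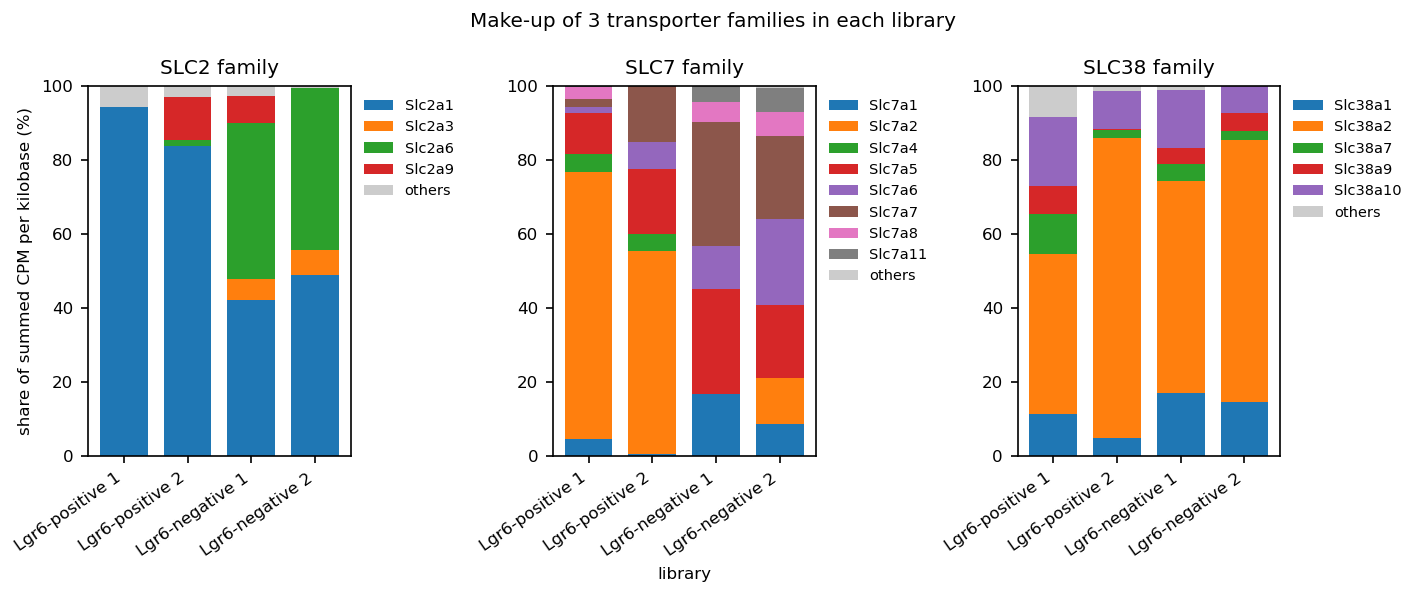
Share of each gene (vertical axis, percent) in the summed CPM per kilobase of the SLC2, SLC7 and SLC38 families in each of the 4 libraries (horizontal axis), with genes under 5% in every library pooled as others. Slc2a1 fills 94.3% and 83.8% of the SLC2 bars and Slc7a2 72.0% and 54.9% of the SLC7 bars in Lgr6-positive libraries, and Slc38a2 is the largest part of SLC38 in all 4.

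The urate carrier gene Slc2a9 had 1 and 379 counts in positive and 139 and 1 in negative libraries, and Slc2a8, an intracellular facilitator gene, 46 and 1 against 33 and 0. Each was carried by 1 library of each population, and their log2 fold changes of 1.14 (SE 2.25) and 0.16 (SE 2.45) turned sign when a library was omitted. Slc2a4, the insulin-responsive carrier GLUT4 of muscle and fat, had 29 and 0 counts in positive libraries and none in negative ones, and Slc2a13, the myo-inositol carrier, 59 and 2 and none. Against a floor of 3 counts per library (0.368 to 0.533 CPM), the positive means were at least 3.55-fold higher for Slc2a4 and 7.48-fold for Slc2a13. Each rested on positive replicate 1, as positive replicate 2 lay below that floor itself. Neither value is thus a bound on a difference shared by both positive libraries. Slc2a10 had 7 and 32 against 0 and 3 counts, a ratio of 9.75 (95% counting interval 3.10 to 49.3), and Slc2a12 4 and 39 against 1 and 4. The fructose carrier gene Slc2a5 had 4 counts in all, and Slc2a2, the GLUT2 gene of liver and islets, and Slc2a7 had none.

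In the cationic branch of SLC7, Slc7a2 and Slc7a4 stood above the negative libraries. Slc7a2, which encodes the arginine and lysine carrier CAT2, had 4528 and 2132 counts in positive and 3 and 257 in negative libraries, or 555 and 270 against 0.47 and 45.7 CPM. The populations did not overlap, and the negative libraries were themselves far apart. The positive mean was 17.9 times the negative mean (log2 fold change 4.16, SE 1.39), with an adjusted p of 0.101 in edgeR. Slc7a2 passed in 7 of 11 alternatives, and 4 of those 7 leave a single library in a population. It passed in DESeq2 (adjusted p = 0.0135) but not in limma-voom (0.0656). In edgeR it also missed with RLE size factors (0.0801), scaling by total counts (0.0839) and a minimum count of 30 (0.113). Its fold change was 3.16 without negative replicate 1 and 9.71 without negative replicate 2. Slc7a2 spans bases 40862396 to 40922308 of chromosome 8, plus strand, and 6.95% of its exonic bases also belong to other genes.

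Slc7a4, a member of the same branch by sequence, had 143 and 81 counts in positive libraries and none in negative ones, at least 27.8-fold higher against the floor. Its adjusted p in edgeR was 0.0731, it passed in DESeq2 (0.00106) and limma-voom (0.0187) among 11 alternatives, and 13.3% of its exonic bases also belong to other genes. Slc7a1, the widespread CAT1 gene, was at 44.5 and 2.91 against 69.1 and 40.2 CPM, with positive replicate 1 between the negative libraries (-1.20, SE 1.24, adjusted p = 0.640 in edgeR). Slc7a3 had 0 and 1 against 0 and 5 counts, and Slc7a14 3 and 0 against 1 and 0. Of the SLC7 sum per kilobase, Slc7a2 took 72.0% and 54.9% in positive and 0.143% and 12.3% in negative libraries.

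**Figure D3:**
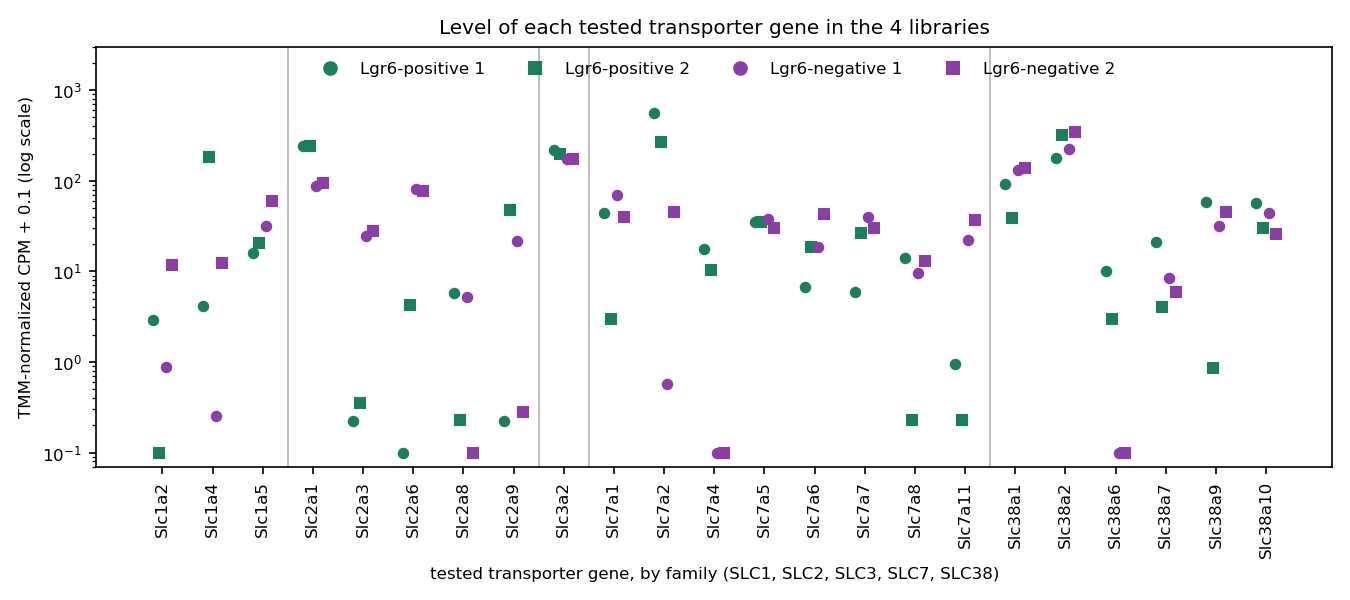
TMM-normalized CPM plus 0.1 (vertical axis, log scale) of the 23 tested transporter genes (horizontal axis) in each library, with Lgr6-positive libraries in green, Lgr6-negative in purple, replicate 1 as circles and replicate 2 as squares. Slc2a1 and Slc7a2 show green above purple, Slc2a3, Slc2a6 and Slc7a11 purple above green, and the points of Slc3a2 and Slc7a5 lie close together.

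Slc3a2, the CD98 heavy chain that takes light chains to the membrane, was at 219 and 197 CPM in positive and 173 and 174 CPM in negative libraries. The positive libraries were above the negative ones by a small step (log2 fold change 0.26, SE 0.43, adjusted p = 0.794 in edgeR). Slc3a1, the heavy chain gene of kidney and intestine, had no counts. Of 10 light chain genes, 5 were tested and none passed in edgeR, while Slc7a11 had an unadjusted p under 0.05 and was called by DESeq2 and limma-voom. Slc7a13 had 1 count, and Slc7a9, Slc7a10, Slc7a12 and Slc7a15 had none.

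Slc7a5, the large neutral amino acid carrier LAT1, was at 34.6 and 35.1 against 37.8 and 29.9 CPM. These values overlapped (0.04, SE 0.93, adjusted p = 0.990 in edgeR), which does not show that the levels were equal. Slc7a6 and Slc7a7 encode light chains that exchange cationic for neutral amino acids. Slc7a7, known from macrophages and gut, was at 5.89 and 26.6 against 39.9 and 30.2 CPM (-1.11, SE 1.18, adjusted p = 0.654), and Slc7a6 at 6.62 and 18.5 against 18.7 and 43.0 CPM (-1.30, SE 1.23). In both, the negative libraries were above the positive ones by a narrow margin. Slc7a8, the LAT2 gene, had 114 and 1 against 61 and 73 counts.

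Slc7a11 encodes the light chain of the cystine and glutamate exchanger, which supplies cysteine for glutathione. It had 7 and 1 counts in positive and 141 and 208 in negative libraries, with means of 0.49 ± 0.52 and 29.5 ± 10.6 CPM (SD, n = 2). Both negative libraries were far above both positive ones, at a ratio of 59.9 (log2 fold change -5.85, SE 1.80, adjusted p = 0.0786 in edgeR). It passed in 4 of 11 alternatives, DESeq2 and limma-voom among them, with adjusted p-values from 2.03e-04 to 0.276. Its deposited values were fractional in both negative libraries, as were those of Slc7a7 in 3 of 4, so some reads were shared out among features. Slc7a11 spans bases 49892526 to 50443614 of chromosome 3, minus strand.

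The window upstream of Slc7a11 is shown because it holds TGATGNAA, the core of the C/EBP-ATF response element through which amino acid shortage is known to act on several transporter genes. It covers bases -200 to -31 before the RefSeq start on GRCm38.p6, chr3:50443644-50443813, minus strand, 5′ to 3′, with the matches in capitals.
Slc7a11: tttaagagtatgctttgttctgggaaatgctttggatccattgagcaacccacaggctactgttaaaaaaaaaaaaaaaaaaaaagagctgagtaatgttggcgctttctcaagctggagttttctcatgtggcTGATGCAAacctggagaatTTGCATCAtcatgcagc
A match at bases -66 to -59 reads along the gene and another at bases -47 to -40 on the opposite strand. TGATGNAA was present in 2.47% of all windows and in 2 of the 46 windows of the 36 transporter genes with an entry, for Slc7a11 and Slc7a7. The antioxidant response core TGACNNNGC was in 7.12% of all windows and in 1 of these 46, for Slc7a6. GAGGAAGT, a site of the leukocyte factor PU.1, was in 1.65% of all windows and in 0 of these 46.

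Heavy and light chains were set side by side per kilobase of exon, a comparison devised after the values had been seen. Slc3a2 was at 62.1 and 55.7 CPM per kilobase in positive and 49.1 and 49.2 in negative libraries. The 10 light chain genes summed to 15.5 and 21.6 against 29.8 and 31.8 CPM per kilobase. The heavy chain was thus 4.01 and 2.58 times the light chain sum in positive and 1.65 and 1.55 times in negative libraries, without overlap and with too few libraries for a test. These ratios depend on the annotated exonic lengths, which were 13922 bases for Slc7a11, 3315 for Slc7a7 and 3529 for Slc3a2.

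**Figure D4:**
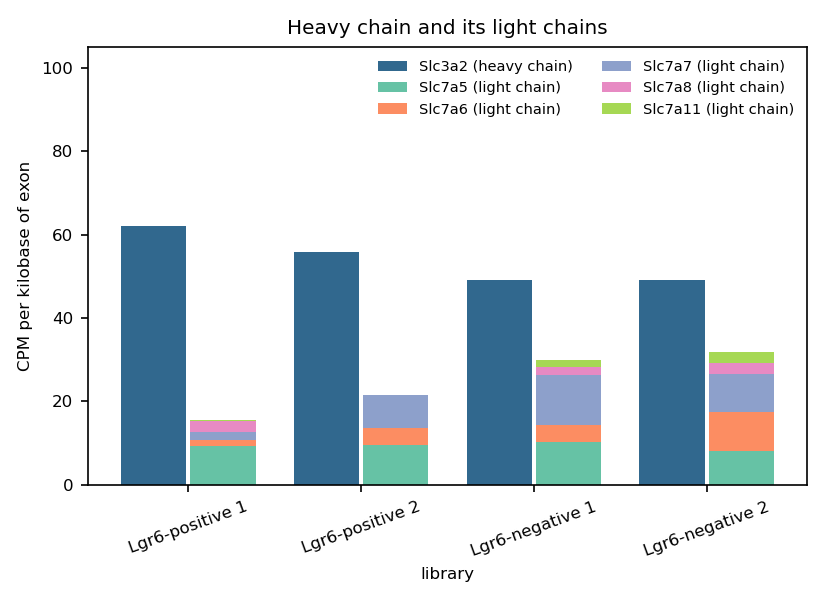
CPM per kilobase of exon (vertical axis) of the heavy chain gene Slc3a2 and, stacked beside it, of the 5 tested light chain genes in each library (horizontal axis). The heavy chain bar is taller than the stack in all 4 libraries, and the stack is taller in the Lgr6-negative libraries.

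The sodium-coupled family was led by Slc38a2, the SNAT2 carrier of neutral amino acids that cells raise on amino acid shortage. It was at 180 and 323 CPM in positive and 226 and 346 CPM in negative libraries. These values overlapped (log2 fold change -0.19, SE 0.46, adjusted p = 0.870 in edgeR), and scaling by total counts turned the sign (0.28). Slc38a2 took 43.4% and 81.1% of the SLC38 sum per kilobase in positive and 57.3% and 70.8% in negative libraries. Slc38a1, the related SNAT1 carrier, was at 91.2 and 38.5 against 131.5 and 138.8 CPM, so both negative libraries were above the positive ones (-1.06, SE 0.63, adjusted p = 0.361).

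Slc38a9, a lysosomal arginine sensor upstream of mTORC1, had 472 and 6 counts in positive and 205 and 251 in negative libraries. The fitted value of -0.39 on the log2 scale (SE 1.50, adjusted p = 0.926 in edgeR) became -5.62 without positive replicate 1, where it passed at 0.0440, and 0.57 without positive replicate 2. Slc38a7, a lysosomal glutamine carrier gene, had 171 and 31 against 54 and 33 counts, and Slc38a10 460 and 240 against 285 and 146, and both overlapped. Slc38a6 had 82 and 23 counts in positive libraries and none in negative ones, at least 13.0-fold higher against the floor, with an adjusted p of 0.113 in edgeR. It passed only in DESeq2 (0.0383) among the 10 alternatives that gave it a value. Slc38a3 (23 and 0 counts), Slc38a4 (25 and 4) and Slc38a11 (50 and 2) had counts in positive libraries alone, and Slc38a8 (12 and 0) in negative libraries alone. Slc38a5 had none.

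In the SLC1 family, Slc1a5, the glutamine carrier ASCT2, was at 15.8 and 20.3 against 31.8 and 59.7 CPM. Both negative libraries were above the positive ones (log2 fold change -1.34, adjusted p = 0.486 in edgeR). Slc1a4, the ASCT1 carrier of alanine, serine and cysteine, had 33 and 1433 counts in positive and 1 and 70 in negative libraries. Replicate 2 held nearly all of its counts in both populations, which overlapped, and its fold change of 3.88 (SE 1.92, adjusted p = 0.260) became -0.66 without positive replicate 2, 4.85 without positive replicate 1 (0.00130) and 9.07 without negative replicate 2 (0.00146). Slc1a4 passed in 4 of 11 alternatives, the latter pair included, but not in DESeq2 (0.0844) or limma-voom (0.422). Slc1a5 took 52.3% and 9.51% of the SLC1 sum per kilobase in positive and 96.7% and 77.9% in negative libraries, and Slc1a4 14.2% and 90.5% against 0.504% and 17.3%. The high-affinity glutamate carriers were scarce, with 72 and 0 against 1 and 0 counts for Slc1a1, 23 and 0 against 5 and 65 for Slc1a2 and 80 and 0 against 8 and 0 for Slc1a3. The ratio for Slc1a1 was 54.0 (95% counting interval 9.39 to 2162), from 1 positive library, and 31.9% of its exonic bases also belong to other genes. Slc1a6 and Slc1a7 had none.

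Several transporters were present in 1 library of a population and nearly missing from the other. Of the 22 with at least 50 counts summed over the positive libraries, 9 were 10-fold or more apart between them, with values under 3 counts set to 3. These were Slc1a1, Slc1a3, Slc1a4, Slc2a9, Slc2a13, Slc7a1, Slc7a8, Slc38a9 and Slc38a11, or 40.9%, beside 17.2% of 10833 genes in the whole table. In the negative population there were 4 of 20, Slc1a2, Slc1a4, Slc2a9 and Slc7a2, beside 10.9% of 9279. This rule was set after the values had been seen. Per the labels, RNA of integrity number 5 to 8 went in at 7 to 25 pg per µl and through 18 PCR cycles, and the part of these in the gaps was not tested.

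**Figure D5:**
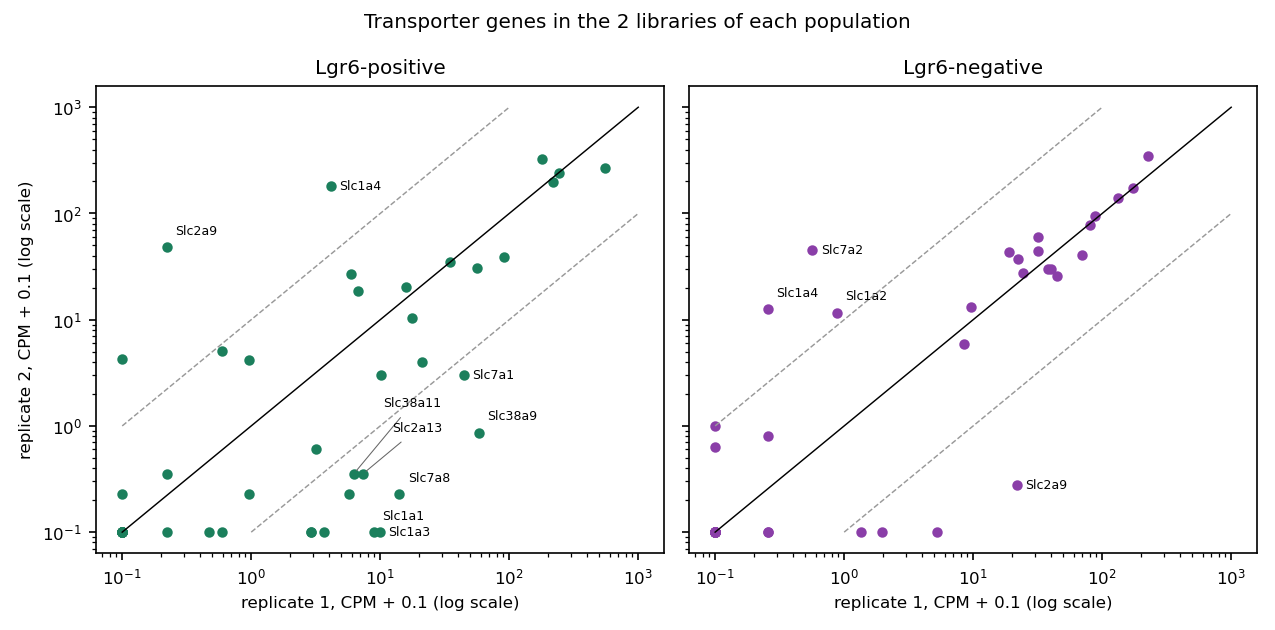
CPM plus 0.1 of the 47 transporter genes in replicate 1 (horizontal axis) and replicate 2 (vertical axis) of each population, both on log scales, with equality as a solid line and 10-fold differences as dashed lines. The 9 labelled genes in the Lgr6-positive and the 4 in the Lgr6-negative panel are those 10-fold or more apart with at least 50 summed counts.

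Genes that act with the glucose carriers were examined in lists. Counts called in these and the later lists stand beside the shares of all tested genes called at an adjusted p under 0.05. Those shares were 9.06% in edgeR, 21.1% in DESeq2 and 12.7% in limma-voom. No list was tested as a set. Of 12 genes of glucose uptake control, 1 was higher in positive cells in edgeR and 11 did not pass (median log2 fold change 0.18). Txnip, whose arrestin-like protein draws GLUT1 into the cell, rose to 1070 CPM from 172 (2.63, SE 0.37, adjusted p = 0.00401 in edgeR) and passed in 11 of 11 alternatives, though 19.4% of its exonic bases also belong to other genes. Its relative Arrdc4 (1.71, SE 0.75), the insulin receptor gene Insr (0.74) and the aminopeptidase gene Lnpep (-1.16) did not pass in edgeR, DESeq2 or limma-voom.

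Of 19 glycolysis genes, 1 was higher and 1 lower in edgeR and 17 did not pass, at a median of -0.12. The aldolase gene Aldoc rose to 120 CPM from 2.21 (5.75, SE 0.89, adjusted p = 0.00596 in edgeR) and passed in 11 of 11 alternatives. The phosphoglycerate mutase gene Pgam1 fell by 1.55 on the log2 scale (SE 0.37, adjusted p = 0.0340), a call lost without negative replicate 1 (0.0512) or 2 (0.0658), in DESeq2 (0.0599) and under scaling by total counts (0.107). Gpi1 (-1.22) and Gapdh (-1.08) did not pass in edgeR, DESeq2 or limma-voom. Of 6 tested genes of lactose synthesis none passed in edgeR, 1 had an unadjusted p under 0.05, and DESeq2 called 1 and limma-voom 0. The UDP-galactose carrier gene Slc35a2 was at 4.93 (SE 1.89, adjusted p = 0.139 in edgeR, 0.00506 in DESeq2), Pgm2 at 2.69, Ugp2 at -0.86 and B4galt1, the galactosyltransferase of lactose synthase, at 0.19 (SE 0.44). Lalba, the regulatory subunit of that enzyme, and B4galt2 had no counts in negative cells. No fold change is given for either, so no difference between the populations is claimed for them.

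Of 10 tested other sugar and lactate carriers, 1 was higher in edgeR and 9 did not pass, while DESeq2 and limma-voom each called 3 genes of the list. Slc37a1, a sugar-phosphate exchanger gene, had 415 and 355 against 5 and 8 counts (5.43, SE 1.33, adjusted p = 0.0384 in edgeR) and lost its call without negative replicate 1 (0.0789) or 2 (0.0521). The sodium-glucose cotransporter gene Slc5a1 had 293 and 21 counts and Slc45a3 454 and 32 in positive libraries, with none in negative ones. Against the floor Slc5a1 was at least 38.5-fold and Slc45a3 at least 59.6-fold higher, at adjusted p-values of 0.0772 and 0.0530 in edgeR. Slc5a1 passed in 4 of the 10 alternatives that gave it a value and Slc45a3 in 8 of 11, DESeq2 and limma-voom included for both. The lactate exporter gene Slc16a3 was at -3.05 (SE 1.51) and did not pass in edgeR, DESeq2 or limma-voom.

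Of 13 tested amino acid carriers outside the 5 families, 2 were lower in edgeR and 11 did not pass, at a median of -1.35. Slc16a10, a carrier of aromatic amino acids, had 38 and 52 against 738 and 448 counts (-4.11, SE 0.90, adjusted p = 0.0251 in edgeR), a call lost without negative replicate 1 (0.0759), in limma-voom (0.0579) and under scaling by total counts (0.0519). The lysosomal peptide and histidine carrier gene Slc15a3 fell by 2.43 on the log2 scale (SE 0.59, adjusted p = 0.0375), a call lost without negative replicate 2 (0.185) and under scaling by total counts (0.0873), and 28.1% of its exonic bases also belong to other genes. Slc15a4 (-2.97, SE 0.91) and Slc17a5 (3.05, SE 1.40) did not pass in edgeR and passed in DESeq2 (0.00240 and 0.0339). Over the whole list DESeq2 called 4 genes and limma-voom 1.

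Of 16 tested genes that use glutamine, cystine and arginine, 1 was higher and 3 were lower in edgeR and 12 did not pass, at a median of 0.09, while DESeq2 called 6 genes of the list and limma-voom 5. Glul, which encodes glutamine synthetase, rose to 889 CPM from 93.6 (3.25, SE 0.40, adjusted p = 0.00202 in edgeR). Glud1, the glutamate dehydrogenase gene, was lower at 275.6 against 1468 CPM (-2.41, SE 0.30, adjusted p = 0.00210). Both passed in 11 of 11 alternatives. The argininosuccinate synthase gene Ass1 had no counts in positive and 109 and 548 in negative libraries, at least 153-fold lower against the floor (adjusted p = 0.0151, lost without negative replicate 2 at 0.104). Odc1, the ornithine decarboxylase gene of polyamine synthesis, fell by 2.13 on the log2 scale (SE 0.46, adjusted p = 0.0223), a call lost under scaling by total counts (0.0674).

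Of 13 tested genes of amino acid sensing by mTORC1 none passed in edgeR, 1 had an unadjusted p under 0.05, and DESeq2 and limma-voom called 0. The kinase gene Mtor was at 1.06 (SE 1.08), the GTPase genes Rheb and Rraga at -1.59 and -1.07, and Nprl3 had 1 and 0 against 17 and 24 counts. In the amino acid starvation response, 1 of 14 tested genes was lower in edgeR and 13 did not pass, at a median of -0.22, while DESeq2 called 4 genes of the list and limma-voom 1. Cebpb, whose protein binds C/EBP elements, fell by 3.80 on the log2 scale (SE 0.82, adjusted p = 0.0228 in edgeR), a call lost without negative replicate 2 (0.104) and under scaling by total counts (0.0539), and 20.7% of its exonic bases also belong to other genes. Atf4, the main factor of that response, was at -1.28 (SE 0.48, adjusted p = 0.129). The asparagine synthetase gene Asns (4.46, SE 1.71) and the serine synthesis gene Psph (2.85, SE 1.10) had adjusted p-values of 0.139 and 0.143 in edgeR and passed in DESeq2 (0.00350 and 0.0119).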

How the data were processed

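RNA-seq of sorted mammary cells gave 4 libraries, 2 per population, grouped by the sample labels. The authors deposited expected counts, unscaled, in a single gene table. The submitters' processing notes name RSEM 1.2.22, STAR 2.4.2a and mm10, without annotation, strand setting or trimming. Values were rounded to whole counts.

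The main test was edgeR 4.0.16 (R 4.3.3): TMM, filterByExpr (minimum count 10, total 15), glmQLFit and glmQLFTest on population alone, with Benjamini-Hochberg adjustment over 11661 genes. SE was taken as the size of the fold change divided by the root of F. Genes at 0 have bounds against 3 counts per library, and genes with 1 to 3 counts a 95% exact binomial interval. Positions, exonic lengths and overlaps are GENCODE M21 on GRCm38 (mm10), matching 47 transporters by symbol, and promoters RefSeq. Alternatives were other scalings and filters, DESeq2 1.42.0, limma-voom (limma 3.58.1), a replicate block and omitting each library. The edgeR fit alone was tested on simulated data.

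Named were Lgr6, every tested transporter and up to 4 tested genes with the smallest p-values per pathway list, and other transporters by counts. The members follow from gene names, but these families and lists were chosen for study with earlier results of these data known.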

Additional observations from a re-analysis of the deposited data

How the results depend on the processing

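Against 0 transporters called in either direction, scaling by total counts gave 1 higher and 0 lower, RLE size factors 0 and 1, no filter 2 and 3, a minimum count of 30 gave 0 and 1, DESeq2 3 and 3, and limma-voom 1 and 3. Leaving out single libraries gave 1 to 2 higher and 1 to 3 lower, most without replicate 1 among positive cells. Such fits assume that a lone library varies like the other population. Replicate numbers are shared between populations, but the labels do not tie equal numbers to an animal, batch or day. The numbers were therefore not taken as pairs. Deviations from the population means correlated at -0.020, which cannot settle pairing where libraries of a population differ this much. The replicate block gave 2 higher (Slc1a4 and Slc7a2) and 1 lower (Slc2a6). Over all genes, 524 higher and 533 lower calls (49.6% higher) became 967 and 854 without a filter, 1566 and 1025 (60.4% higher) in DESeq2, 628 and 327 (65.8% higher) under scaling by total counts and 678 and 662 with the block. Single omissions gave 678 to 956 higher and 540 to 1030 lower, the highest of both without positive replicate 1.

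The direction of 11 named genes depended on single libraries, with log2 fold changes over the fits that omit a library from -8.36 to 0.81 for Slc1a2, -0.66 to 9.07 for Slc1a4, -4.16 to 7.37 for Slc2a8, -6.30 to 6.95 for Slc2a9, -0.13 to 0.21 for Slc7a5, -6.28 to 0.29 for Slc7a8, -0.69 to 0.17 for Slc38a2, -0.86 to 1.52 for Slc38a7, -5.62 to 0.57 for Slc38a9, -0.22 to 0.72 for Slc38a10 and -0.0028 to 0.33 for B4galt1. Scaling by total counts gave 0.28 for Slc38a2 and 0.13 for Slc38a9. The other 13 tested transporters kept their sign in each alternative that gave a value. The causes were not tested. Each population had 2 libraries, which limits precision.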
